A study of Saccharomyces cerevisiae with 18 samples.

Results

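The aminoacyl-tRNA synthetase genes of Saccharomyces cerevisiae were followed in 18 RNA sequencing libraries, as 32 named genes of the 7126 in the deposited table. The 32 members are 18 genes of cytosolic synthetases, ARC1, a cofactor that binds tRNA and holds the methionine and glutamate enzymes together, and 13 genes of mitochondrial synthetases (MSD1 to DIA4). ARC1 was counted with the cytosolic members, which made 19. The members were chosen by name and not by a measured value, though with earlier results of these data known.

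A synthetase joins an amino acid to its tRNA, and the charged tRNA is what the ribosome reads a codon with. Yeast has a separate set of enzymes for the ribosomes of the mitochondrion, which are also encoded in the nucleus and made on cytosolic ribosomes. For several amino acids a single gene serves both places: ALA1, GRS1, HTS1 and VAS1 each make a cytosolic and a mitochondrial form by starting translation at different codons. Uncharged tRNA is sensed by the kinase Gcn2, which slows initiation and raises the transcription factor Gcn4.

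The strains were R28P-30B, R28P-30A and WT, all of the BY background (MATa his3Δ200 leu2Δ0 lys2Δ0 ura3Δ0). Both plasmid strains are listed with deletions of the RPL7A and RPL7B loci (rpl7aΔ::URA3 rpl7bΔ::KMX) and live on a LEU2 plasmid that carries the cDNA of RPL7B (uL30B, in R28P-30B) or RPL7A (uL30A, in R28P-30A) behind the RPS28A promoter. The strain list gives several clones of each, and which were sequenced is not given in the sources used here. Cells grew exponentially at 30 °C. From each of 2 cultures per strain, 3 libraries were made: a total extract, a light fraction (free subunits and monosomes) and a heavy fraction (4 or more ribosomes on an mRNA). The question of the comparison was whether the uL30 paralog in the ribosome changes which mRNAs are found on polysomes.

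Libraries held 17373839 to 31525927 reads. RPL7A and RPL7B reads fitted the label in R28P-30B, with 930 RPL7A and 730928 RPL7B reads over its 6 libraries. Its libraries also held 47409 URA3 and 96411 LEU2 reads. In the libraries labelled R28P-30A, 40519 RPL7B reads (beside 358251 of RPL7A) and only 11 URA3 reads went against the label, while 13091 LEU2 reads were present. In WT the counts were 295415 RPL7A, 58984 RPL7B, 3 URA3 and 6 LEU2 reads. These libraries are therefore called "labelled R28P-30A" throughout. All 32 members passed the filter on low values (mean above 1 TPM in WT total extracts, reads in every polysome library). None of the 32 genes overlaps another annotated gene or has an intron, and they lie on 12 chromosomes.

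ALA1, GRS1, HTS1 and VAS1 carry both starts in the first bases of their mRNA, so those bases are shown, 5′ to 3′, from the R64 reference genome (RefSeq). In VAS1 and HTS1 both starts are ATG codons in the same frame. The capitals mark the first ATG, which begins the mitochondrial form, and the second, at codon 47 of VAS1 and codon 21 of HTS1, which begins the cytosolic form. The VAS1 stretch is chrVII:672186-672335 (plus strand) and the HTS1 stretch chrXVI:638945-639019 (minus strand), both coding.
VAS1: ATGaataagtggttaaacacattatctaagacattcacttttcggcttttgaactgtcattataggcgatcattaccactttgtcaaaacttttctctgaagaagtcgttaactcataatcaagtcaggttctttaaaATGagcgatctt
HTS1: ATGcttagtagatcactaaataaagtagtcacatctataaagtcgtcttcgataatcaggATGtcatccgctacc
In ALA1 and GRS1 the mitochondrial form starts upstream of the annotated ATG at codons other than ATG. The capitals mark the pair of ACG codons of ALA1, of which the first lies 25 codons before the ATG, and the TTG codon of GRS1, 23 codons before it. Both windows are upstream of the coding region, ALA1 at chrXV:949161-949190 and GRS1 at chrII:483413-483442, on the minus strand.
ALA1: gacaagACGACGtcaactaccggattaagg
GRS1: gaaaaaTTGtcgttcttcaatatcagtaga
Reads were counted per gene, so every value of these 4 genes below pools both forms.

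In total extracts every cytosolic member stood above every mitochondrial member in all 6 libraries. TPM, a level per coding length scaled to the library total, was recomputed here from reads and coding length, so that it can be compared between genes. Cytosolic members ran between 136.7 and 473.0 TPM in R28P-30B, 144.8 and 466.9 in libraries labelled R28P-30A and 145.6 and 477.7 in WT. Mitochondrial members ran between 12.79 and 48.95, 13.73 and 42.97, and 13.69 and 44.33 TPM in the same order of strains. The sum over cytosolic members was 14.5 and 14.7 times that over mitochondrial members in R28P-30B, 14.6 and 14.4 times in libraries labelled R28P-30A, and 14.4 and 14.1 times in WT.

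ARC1 was the most abundant cytosolic member in WT, with 441.0 and 477.7 TPM, followed by the lysine enzyme KRS1 with 394.8 and 420.7 TPM. The ranges of these neighbours did not overlap. GLN4, the glutamine enzyme, was the lowest with 145.6 and 149.0 TPM, below ALA1 with 151.8 and 152.0 TPM. Among mitochondrial members, the lysine enzyme MSK1 led with 41.21 and 44.33 TPM, ahead of the tryptophan enzyme MSW1 with 39.01 and 37.11 TPM. The isoleucine enzyme ISM1 was lowest with 13.69 and 14.65 TPM, and SLM5, the asparagine enzyme, stood next with 18.85 and 19.74 TPM. Every cytosolic member was above at least 80.7% of the 5681 genes tested, while the highest mitochondrial member, MSK1, had 38.0% of genes under it.

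For 12 amino acids both classes have a member, and in all 12 pairs the cytosolic mRNA was the higher in WT. The ratio of mean TPM ran from 5.37 for tryptophan (WRS1 over MSW1) to 20.4 for asparagine (DED81 over SLM5), with a median of 9.81. Codon usage followed the same division. The codon adaptation index, which is close to 1 for a gene written in the codons of ribosomal protein genes (138 of them set the weights), ran from 0.361 to 0.554 in cytosolic members and from 0.166 to 0.25 in mitochondrial members, with a median of 0.217 over 5654 genes. Values did not overlap between the classes.

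**Figure D1:**
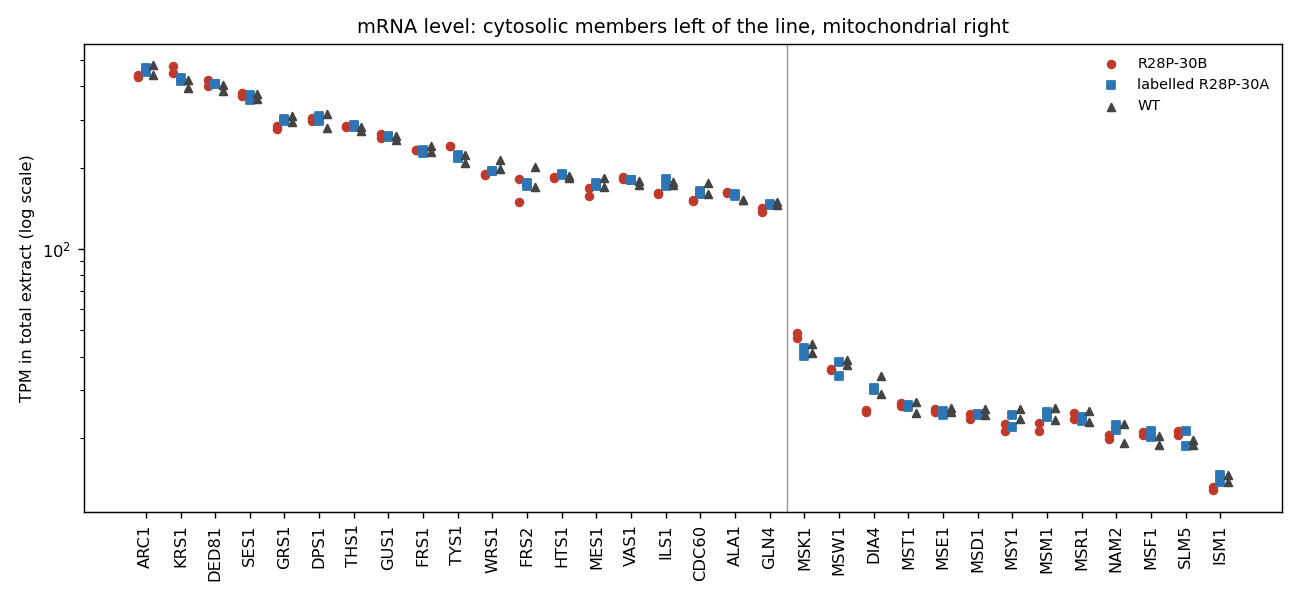
TPM in total extracts (log axis) of the 32 members, each point a culture of R28P-30B (red circles), labelled R28P-30A (blue squares) or WT (grey triangles). Cytosolic members, left of the line, all lie above 136 TPM and mitochondrial members, right of it, all below 49 TPM.

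The mRNA level of the members differed little between strains. In R28P-30B against WT, 1 member rose and 1 fell of 32, where 10.6% of all 5681 genes rose and 13.6% fell (limma on log2(TPM + 1), Benjamini-Hochberg adjusted p under 0.05 over all genes, n = 2 cultures each). KRS1 had 448.3 and 473.0 TPM in R28P-30B and 394.8 and 420.7 TPM in WT, a log2 fold change of 0.18 ± 0.06 (SE, adjusted p = 0.047). DIA4, the mitochondrial serine enzyme, had 25.39 and 24.92 TPM in R28P-30B and 29.17 and 33.84 TPM in WT, a log2 fold change of -0.31 ± 0.09 (adjusted p = 0.0126). In neither gene did the strains overlap, but 22.5% of all 5681 genes also lay wholly above WT and 41.2% wholly below. The KRS1 call was lost without any 1 of the 4 cultures, and the DIA4 call without either R28P-30B culture or WT replicate 2. With the replicate number as a block 2 members rose and 1 fell, beside 13.3% of genes that rose and 20.2% that fell, and the addition was TYS1, the tyrosine enzyme, at 0.17 ± 0.05 (limma adjusted p = 0.0306). The medians were -0.0084 over cytosolic and -0.039 over mitochondrial members, beside -0.0532 over all genes.

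No member passed the test in libraries labelled R28P-30A against WT, where 0.88% of all genes were higher and 0.194% lower. The count at an unadjusted p under 0.05 was also 0, and edgeR and DESeq2 on recovered reads called 0. Between R28P-30B and the libraries labelled R28P-30A limma called 0 members and 3 had an unadjusted p under 0.05, beside 5.91% of genes higher and 6.25% lower. There edgeR called 3 members (2 higher, 1 lower) and DESeq2 3 (all higher), with the shares of all genes in those fits not given here. With the replicate block limma called MSK1 higher, at 0.20 ± 0.06 (adjusted p = 0.0369), and DIA4 lower, at -0.26 ± 0.07 (adjusted p = 0.0205), beside 8.11% of genes higher and 10.9% lower.

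The association with polysomes was read from the translation index, the heavy-fraction CPM over the light-fraction CPM of a culture, CPM being reads scaled to the library total. CPM is relative to each library, so an index of 1 does not mean equal amounts of mRNA in both fractions. In WT the classes differed here as well. Against the median gene, 17 of 19 cytosolic members stood higher and 1 lower, and 2 of 13 mitochondrial members stood higher and 10 lower (limma on the log2 index centred on the median gene, adjusted p under 0.05). Over all 5664 genes tested 41.9% were higher and 41.7% lower.

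THS1, the threonine enzyme, had the highest index in WT, 2.23 and 2.27, and the glutamate enzyme GUS1 the next, 2.17 and 2.28. These neighbours overlapped. The lowest of the cytosolic members was ILS1, the isoleucine enzyme, with 0.657 and 0.611, below the methionine enzyme MES1 with 0.914 and 0.918. ILS1 was the 1 cytosolic member called below the median gene. Of the mitochondrial members, DIA4 had 1.11 and 1.27 and MSD1, the aspartate enzyme, 1.03 and 0.988, and these were the 2 called above the median gene. At the low end stood MSK1 with 0.498 and 0.528 and SLM5 with 0.348 and 0.444. The cytosolic index was the higher in 11 of the 12 pairs, isoleucine being the exception with ILS1 at 0.923 times ISM1. The largest ratio was 4.1 for threonine (THS1 over MST1).

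The bases around the annotated start codon, where the scanning ribosome begins, are shown for the members at both ends of the WT index, with the ATG in capitals. An adenine 3 bases before the ATG is the most constant feature of yeast start sites. The windows are, with the chromosome of R64, chrIX:212493-212504 (THS1, plus), chrVII:39017-39028 (GUS1, plus), chrII:84256-84267 (ILS1, minus), chrXIV:488380-488391 (MSK1, plus) and chrIII:162217-162228 (SLM5, minus).
THS1: acggagATGagt
GUS1: atcaagATGcca
ILS1: ggaaatATGtcc
MSK1: ttgccgATGaat
SLM5: cagctaATGttt
The adenine was present in 14 of 19 cytosolic members (73.7%) and 8 of 13 mitochondrial members (61.5%), beside 60.8% of 5654 genes. The annotated ATG was scored, which in VAS1 and HTS1 begins the mitochondrial form and lacks the adenine. The second ATG of these genes, which begins the cytosolic form, has it. The windows above hold members with and without it at both ends of the order.

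In R28P-30B the index of 13 members rose against WT and that of 0 fell, 12 of them cytosolic and 1 mitochondrial. Of all 5664 genes 12.4% rose and 10.2% fell (limma on log2((heavy CPM + 0.1)/(light CPM + 0.1)), adjusted p under 0.05, n = 2 cultures each). The count of 0 that fell was the same with edgeR and DESeq2, and all 14 members with an unadjusted p under 0.05 were higher. The median log2 fold change was 0.33 over cytosolic members and 0.02 over mitochondrial members, beside -0.04 over all genes.

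VAS1, the valine enzyme, had an index of 2.52 and 2.73 in R28P-30B, against 1.53 and 1.26 in WT. CDC60, the cytosolic leucine enzyme, had 2.01 and 2.31 in R28P-30B, against 1.28 and 1.10 in WT. ALA1, the alanine enzyme, had 1.996 and 2.38 in R28P-30B, against 1.29 and 1.17 in WT. In all 3 genes both R28P-30B cultures lay above both WT cultures, as they did in 29.2% of all 5664 genes. The log2 fold changes were 0.92 ± 0.10 for VAS1, 0.86 ± 0.10 for CDC60 and 0.83 ± 0.10 for ALA1 (SE), with adjusted p of 2.68e-05, 4.08e-05 and 4.08e-05 in limma.

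ILS1 had an index of 1.07 and 1.15 in R28P-30B, against 0.657 and 0.611 in WT, a log2 fold change of 0.81 ± 0.09. NAM2, the mitochondrial leucine enzyme, which also takes part in intron splicing in the mitochondrion, had 1.02 and 0.994 in R28P-30B, against 0.733 and 0.656 in WT, a log2 fold change of 0.54 ± 0.11 (limma adjusted p = 0.00212). These groups did not overlap either, with R28P-30B above WT as in 29.2% of all genes. The other called members rose by 0.30 (FRS1, of the phenylalanine enzyme, and KRS1) to 0.46 (GRS1, the glycine enzyme) on the log2 scale, with GLN4 at 0.42, MES1 at 0.40, THS1 at 0.37, FRS2 at 0.34 and HTS1 at 0.33. All 4 genes with a double destination were among them.

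Calls, most of all those of the smaller changes, depended on single cultures and on how the spread was modelled. Without R28P-30B replicate 2, 5 members were called higher in place of 13, and VAS1, CDC60, ALA1, ILS1 and NAM2 were these 5. The fit first run, with the spread modelled on a gene's mean index and not its abundance, called 12 members. With a culture left out in turn it called 7 without R28P-30B replicate 1, 0 without R28P-30B replicate 2, 5 without WT replicate 1 and 0 without WT replicate 2. Across these fits and the other alternatives the log2 fold changes stayed between 0.78 and 1.05 for VAS1, 0.75 and 0.96 for CDC60, 0.70 and 0.95 for ALA1, 0.76 and 0.87 for ILS1 and 0.46 and 0.62 for NAM2.

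**Figure D2:**
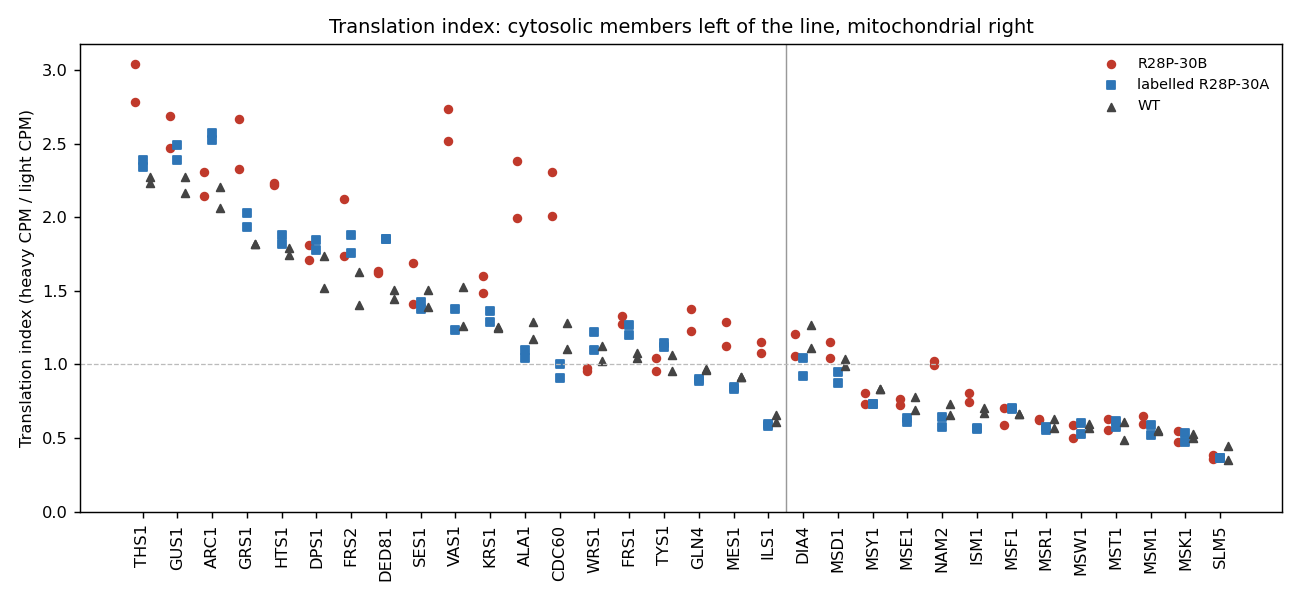
Translation index (heavy CPM over light CPM) of the 32 members, each point a culture of R28P-30B (red circles), labelled R28P-30A (blue squares) or WT (grey triangles). VAS1, ALA1 and CDC60 reach 1.996 to 2.73 in R28P-30B, against 1.10 to 1.53 in WT, while most mitochondrial members lie below 1 in every strain.

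Members with the largest change were those with the longest coding region. The 5 largest log2 fold changes belonged to VAS1 (3315 nt), CDC60 (3273 nt), ALA1 (2877 nt), ILS1 (3219 nt) and NAM2 (2685 nt). Of the members over 2500 nt, 5 of 6 rose. The sixth, ISM1 (3009 nt), had an index of 0.745 and 0.807 in R28P-30B, against 0.705 and 0.669 in WT, and did not pass the test (0.18 ± 0.11). Among members up to 2500 nt, 8 of 26 rose. The limit of 2500 nt was set after the values were seen.

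Length went with the change over all genes too, and the members' counts are to be read beside that. Of the 776 genes over 2500 nt 52.2% rose, and of the 4888 up to 2500 nt 6.14% rose. The median log2 fold change was 0.82 over the 6 long members and 0.325 over all long genes. It was 0.11 over the 26 shorter members and -0.08 over all shorter genes. Across genes, which share libraries and are not replicates, the log2 fold change correlated with log2 coding length at Pearson's r = 0.924 in the 19 cytosolic members, 0.766 in the 13 mitochondrial members and 0.518 in all 5664 genes. The part of length in the members' result was not tested.

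**Figure D3:**
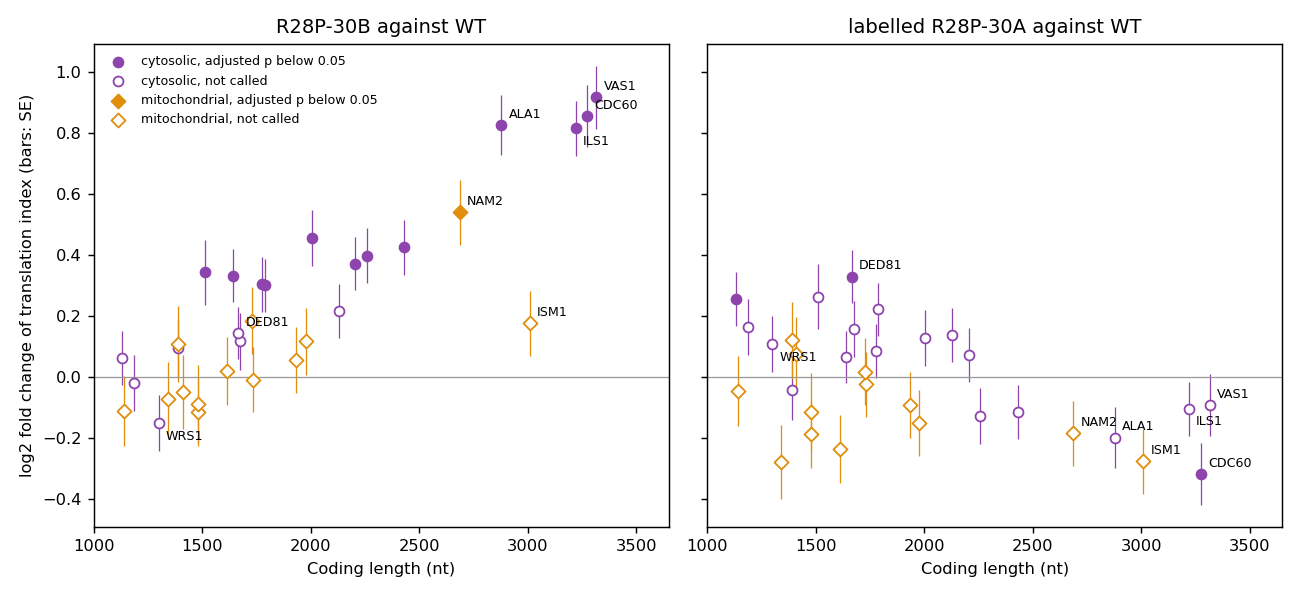
log2 fold change of the translation index against coding length for R28P-30B (left) and labelled R28P-30A (right) against WT, for cytosolic (purple circles) and mitochondrial (orange diamonds) members. Filled points had an adjusted p under 0.05 and bars are SE. In R28P-30B the long cytosolic members lie at 0.81 to 0.92, and in libraries labelled R28P-30A the members over 2500 nt lie between -0.32 and -0.09.

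The fractions behind the ratio were tested apart. In the light fraction of R28P-30B, 17 members were lower than in WT (12 cytosolic and 5 mitochondrial) and 1 was higher, beside 28% of genes lower and 18.6% higher. In the heavy fraction 1 member was higher and 1 lower, beside 7.27% of genes higher and 14.1% lower. CDC60 had 223.6 and 206.9 CPM in the light fraction of R28P-30B, against 363.9 and 455.2 CPM in that of WT, a log2 fold change of -0.92 ± 0.11. In the heavy fraction it had 449.2 and 477.5 CPM in R28P-30B, against 467.1 and 501.9 CPM in WT, and the change of -0.06 ± 0.08 did not pass the test.

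ILS1 showed the same division, with 430.7 and 430.3 CPM in the light fraction of R28P-30B, against 689.1 and 824.2 CPM in WT, and 463.1 and 496.5 CPM in the heavy fraction of R28P-30B, against 452.5 and 503.7 CPM in WT. The log2 fold change of ILS1 was -0.81 in the light fraction, where 28% of all genes were called lower, and 0.006 ± 0.08 in the heavy fraction. KRS1 was the exception among called members. In the light fraction its values were 659.9 and 671.1 CPM in R28P-30B and 657.6 and 700.2 CPM in WT. In the heavy fraction it rose by 0.28 ± 0.08 (log2, limma adjusted p = 0.0287). DIA4 fell in both, by 0.33 in the light and 0.40 in the heavy fraction on the log2 scale. SLM5 was the single member higher in the light fraction, by 0.24. The KRS1 call in the heavy fraction was lost without R28P-30B replicate 2 (0.21) and without either WT culture (0.225 and 0.325). That of SLM5 was lost without either R28P-30B culture (0.19 and 0.29) and without WT replicate 2 (0.18). The DIA4 call in the light fraction was lost without replicate 2 of either strain (-0.19 and -0.29) and when centred on the median gene (-0.25). Its call in the heavy fraction was lost without WT replicate 2 (-0.275).

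**Figure D4:**
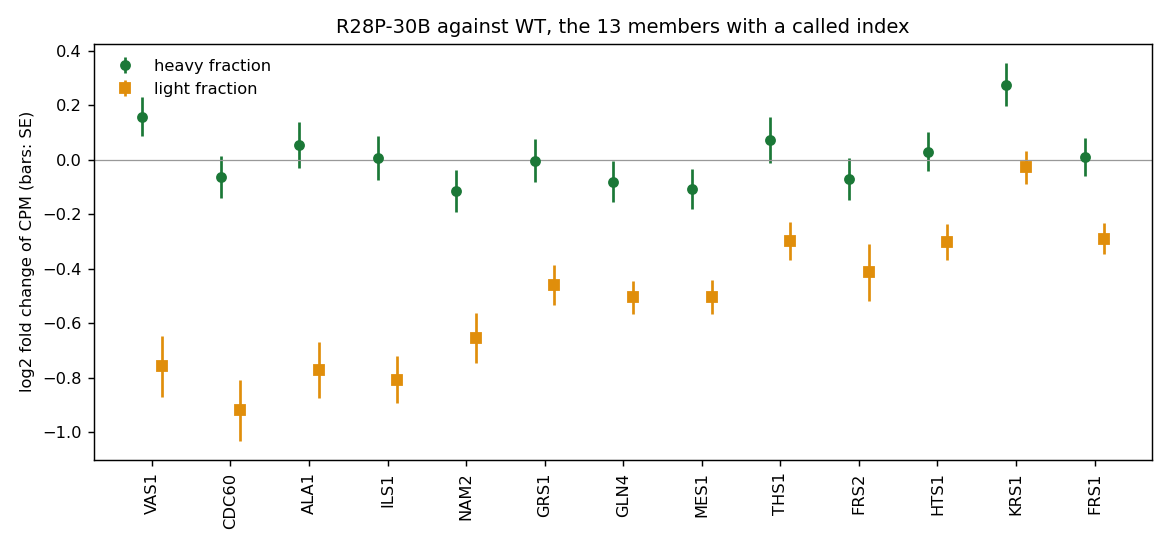
log2 fold change of CPM in R28P-30B against WT in the heavy (green circles) and light (orange squares) fractions for the 13 members whose index rose, with SE as bars. The light fraction lies between -0.92 and -0.03 and the heavy fraction between -0.12 and 0.28.

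In libraries labelled R28P-30A the index of 2 members was higher and that of 1 lower than in WT, all cytosolic, beside 5.56% of genes higher and 25.3% lower. DED81 had an index of 1.85 and 1.85 in libraries labelled R28P-30A, against 1.445 and 1.505 in WT, a log2 fold change of 0.33 ± 0.09. ARC1 had 2.57 and 2.53 in libraries labelled R28P-30A, against 2.06 and 2.20 in WT (0.26 ± 0.09). CDC60 had 0.908 and 1.003 in libraries labelled R28P-30A, against 1.28 and 1.10 in WT (-0.32 ± 0.10). The groups did not overlap in any of the 3 genes. Of all 5664 genes, both cultures lay above both WT cultures in 17% and below them in 50.7%. The ARC1 call was lost with each culture of either strain left out (0.21 to 0.305), and with the spread modelled on the mean index (0.26). That of DED81 was lost without WT replicate 1 (0.30). The CDC60 call was lost without replicate 1 of either strain (-0.25 and -0.21), and with the spread modelled on the mean index (-0.32).

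The median gene itself shifted by -0.13 (log2) in this comparison, and the counts followed the scaling. Once the median gene was set to 0 in every culture, 11 members were higher and 0 lower, and edgeR called 10 higher and 0 lower and DESeq2 11 higher and 0 lower. The shares of all genes called in these settings are not given here, so the counts are not read as particular to the members. Beside the shift of -0.13, the median log2 fold change was 0.09 over cytosolic and -0.11 over mitochondrial members. Of mitochondrial members 0 were called in this comparison by limma, and 3 had an unadjusted p under 0.05. The members over 2500 nt had a median of -0.19, beside -0.45 over all genes of that length.

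In the fractions, 2 members were higher (ISM1 and SLM5) and 3 lower (DED81, GUS1 and ARC1) in the light fraction of libraries labelled R28P-30A than in that of WT, beside 30% of genes higher and 9.87% lower. When centred on the median gene the split was 0 higher and 9 lower, with the share of all genes in that setting not given here. In the heavy fraction 0 members were called by limma, 0 had an unadjusted p under 0.05, and 0.141% of all genes were higher and 0.0353% lower.

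Set against each other, R28P-30B had the higher index in 11 members (9 cytosolic, 2 mitochondrial) and the lower in 1, WRS1, beside 30.7% of genes higher and 15.4% lower. Centred on the median gene the split was 8 higher and 6 lower, with edgeR 8 and 5, and with DESeq2 7 and 4. The shares of all genes in these settings are not given here either. All 6 members over 2500 nt were higher, by 0.45 (ISM1) to 1.17 (CDC60) on the log2 scale, which is close to the share of all 776 genes of that length, of which 95% were higher. CDC60 had 2.01 and 2.31 in R28P-30B, against 0.908 and 1.003 in libraries labelled R28P-30A. WRS1, the tryptophan enzyme (1299 nt), had 0.955 and 0.978 in R28P-30B, against 1.22 and 1.10 in libraries labelled R28P-30A.

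Genes that work beside the synthetases were counted from 5 lists. Their counts in index are to be read beside the 12.4% of all genes that rose and 10.2% that fell in R28P-30B, and beside 5.56% and 25.3% in libraries labelled R28P-30A. Coding length is not given for the listed genes, and its part in their changes was not tested. Of all 776 genes over 2500 nt, 405 rose and 5 fell in R28P-30B. In libraries labelled R28P-30A 0 of these 776 were higher and 589 lower. Of 8 other synthetase and amidation genes, 1 rose in index in R28P-30B against WT, YHR020W at 0.46 ± 0.09, and 0 fell; in total extracts YDR341C rose by 0.24. Of 9 mitochondrial translation factors 0 rose and 1 fell in index, the release factor MRF1 at -0.30 ± 0.10. Of 6 genes that bring charged tRNA to the cytosolic ribosome, YEF3, elongation factor 3, rose by 0.94 ± 0.11 and 0 fell. TEF1 and TEF2 encode the same protein, and their reads may be shared between the copies.

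Of 28 genes of tRNA maturation and export 3 rose in index in R28P-30B and 3 fell, shares near those of all genes. TRZ1, which trims the 3′ end of tRNA, rose by 0.70, MSN5, an exporter, by 0.51 and the ligase TRL1 by 0.47. The splicing endonuclease subunit SEN15 and the deaminase TAD1 fell by 0.36 each and the phosphotransferase TPT1 by 0.32. Of 5 genes that sense uncharged tRNA, GCN2 rose by 0.33 and GCN20 by 0.27 and 0 fell.

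In libraries labelled R28P-30A against WT, 0 of the 8 other synthetase and amidation genes and 0 of the 9 mitochondrial translation factors were called in index. Of the 6 delivery genes 3 were higher, TEF2 at 0.43, TEF1 at 0.28 and CAM1, a part of elongation factor 1B, at 0.23, and 0 were lower. Of the 28 genes of tRNA maturation and export 0 were higher and 3 lower, MSN5 at -0.58, TRL1 at -0.43 and MOD5, which modifies the base beside the anticodon, at -0.36. Of the 5 genes that sense uncharged tRNA 0 were higher and 2 lower, GCN2 at -0.75 and GCN1 at -0.49.

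Of 70 mitochondrial ribosomal protein genes, 0 rose and 19 fell in index in R28P-30B against WT, where 12.4% of all genes rose and 10.2% fell. Their median was -0.23, beside -0.04 over all genes and 0.02 over the 13 mitochondrial synthetases. Over all 4888 genes up to 2500 nt the median was -0.08. Coding length is not given for the 70 genes, and its part in these differences was not tested. In libraries labelled R28P-30A against WT 8 of the 70 were higher and 1 lower, where 5.56% of all genes were higher and 25.3% lower. Their median was 0.04, beside -0.13 over all genes.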

How the data were processed

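Poly(A) RNA of 18 libraries was sequenced as a pool. The authors aligned directional reads to R64 with STAR, kept all valid positions, counted genes with featureCounts and deposited CPM. Divided by the value of 1 read, 100% of values lay within 0.05 of a whole number, so reads were recovered and TPM was recomputed with RefSeq coding lengths (at most 0.47% of reads had none). The deposited TPM held 16 of 18 libraries and was not used.

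Genes above 1 TPM in WT were tested with limma 3.58.1 (R 4.3.3) on log2(TPM + 1), log2(CPM + 0.1) or the log2 index, with all 3 strains in a fit, a trended spread and Benjamini-Hochberg adjustment. The index fits were first run with limma's default trend, on the mean index. After the calls of that fit had been seen, and found to be fewer than in an earlier analysis of these data, the trend was put on mean abundance, because the spread of a ratio follows depth; values of both are given. edgeR 4.0.16 and DESeq2 1.42.0 on recovered reads, other pseudocounts, filters, centring and left-out cultures were alternatives. In data simulated for R28P-30B against WT, the index fit called 98 of 100 genes changed by a log2 fold of 1 and 64 of 100 changed by 0.5. The simulation gave every gene the same assumed spread and put the change in the heavy and total libraries. In the real libraries most called members differed in the light fraction. The simulated counts therefore do not give the power of these cultures.

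Members, lists and the rule for named genes (called members, and the ends of each class by WT level and index) were chosen with earlier results of these data known. The study counts the 2 cultures of a strain as independent biological samples. Replicate differences correlated between strains at 0.108, 0.15 and 0.119 across genes in total extracts, all over 0.1. The main total extract fits did not use the shared numbers as pairs. Values with the replicate block are given beside them where they change a call. In index 1 correlation was -0.167, and the shared numbers were not taken as pairs. An exact permutation of 2 against 2 cultures gives no two-sided p below 0.33.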

Additional observations from a re-analysis of the deposited data

Results flagged for a closer look

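The change of index against WT differed between R28P-30B and the libraries labelled R28P-30A in 12 members, 11 higher in R28P-30B and 1 lower. The test was limma's test of the difference itself (adjusted p under 0.05, n = 2 cultures each), and WT cancels out of it. By the same test 30.7% of all 5664 genes were higher and 15.4% lower. Of the 776 genes over 2500 nt 95% were higher. The count of 12 is therefore not read as particular to the members. On the log2 scale R28P-30B minus labelled R28P-30A was 1.17 for CDC60, 1.02 for ALA1, 1.01 for VAS1, 0.92 for ILS1, 0.72 for NAM2, 0.54 for GLN4, 0.53 for MES1, 0.45 for ISM1, 0.33 for GRS1, 0.30 for THS1 and 0.27 for HTS1. It was -0.26 for WRS1. The differences of GRS1, THS1 and HTS1 did not pass the test when centred on the median gene (0.15, 0.12 and 0.09), in edgeR (0.16, 0.13 and 0.09) or in DESeq2 (0.15, 0.12 and 0.09). That of ISM1 did not pass in DESeq2 (0.27), nor that of WRS1 with the spread modelled on the mean index (-0.26).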

How the results depend on the processing

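Of 85 calls of single members, 792 of 975 values under alternatives kept direction and call, 182 kept direction and lost the call (151 of them with a culture left out) and 1 turned: GLN4 in WT heavy over light was -0.045 when not centred. The cause was not tested unless named. With 2 cultures per strain, a left-out culture leaves a strain with 1, assumed to vary like the others; changes near a log2 of 0.3 are at the limit of what these cultures resolve.

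The spread modelled on the mean index, which was the first fit run and was added to the alternatives after seeing the data, called fewer genes: 515 higher and 266 lower in index in R28P-30B against WT in place of 705 and 578, 204 and 1172 in labelled R28P-30A against WT in place of 315 and 1432, and 1673 and 744 between them in place of 1738 and 871. Of members it called 12 higher in R28P-30B, 1 higher and 0 lower in labelled R28P-30A, and 12 higher and 0 lower between them. With a culture left out under it, members called higher ranged from 0 to 7 in R28P-30B against WT, 0 to 0 (0 to 0 lower) in labelled R28P-30A against WT, 8 to 10 (0 to 0 lower) between them, and 17 to 17 (10 to 10 lower) in WT heavy over light.

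With a culture left out under the reported fits, members called in index were 5 to 11 higher in R28P-30B against WT, 0 to 2 higher and 0 to 1 lower in labelled R28P-30A against WT, and 8 to 12 higher and 0 to 1 lower between them. In total extracts of R28P-30B against WT they were 0 to 1 higher and 0 to 2 lower. In the light fraction they were 0 to 1 higher and 9 to 16 lower in R28P-30B, and 0 to 5 higher and 1 to 3 lower in labelled R28P-30A. In the heavy fraction of R28P-30B they were 0 to 1 higher and 0 to 1 lower, and in WT heavy over light 17 to 17 higher and 10 to 10 lower.

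Centred on the median gene, members higher in total extracts were 3 in R28P-30B against WT, and 1 higher and 1 lower against labelled R28P-30A. In index they were 11 higher and 0 lower in labelled R28P-30A against WT, and 6 lower in R28P-30B against labelled R28P-30A. In the light fraction they were 2 higher in R28P-30B, and 0 higher and 9 lower in labelled R28P-30A. In the heavy fraction 4 were higher in R28P-30B. edgeR gave 3 higher in R28P-30B total extracts, 2 higher and 1 lower against labelled R28P-30A, and in index 10 higher and 0 lower in labelled R28P-30A and 5 lower between the plasmid strains. DESeq2 gave 3, then 3 higher, 11 higher and 0 lower, and 7 higher and 4 lower. A rule of log2 0.5 on the mean index, with no test, gave 5 higher in R28P-30B, 0 and 0 in labelled R28P-30A, and 7 higher and 0 lower between them. With no filter on low values 0 members were higher in R28P-30B total extracts, and with only the 2 plasmid strains fitted 1 was lower in R28P-30B. Shares of all genes are not given for these alternatives, so the counts show only how the members' calls moved.

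In index the replicate differences correlated across genes at 0.149, 0.106 and -0.167 between strains, so the shared numbers were not taken as pairs there. With the replicate block 2 members were higher in R28P-30B total extracts, 1 higher and 1 lower against labelled R28P-30A, and 1 higher in the light fraction of labelled R28P-30A; in index 13 rose in R28P-30B, as without it.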
